A study of Mus musculus with 6 samples.

Results

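Autotaxin and lysophosphatidic acid receptors were examined in EO771 cells, a mouse mammary carcinoma cell line, as 9 genes: Enpp2, which encodes autotaxin, the receptor genes Lpar1, Lpar2, Lpar3, Lpar4 and Lpar6, and the lipid phosphate phosphatase genes Plpp1, Plpp2 and Plpp3. They were found by gene symbol among the 49523 rows of a table of RNA-seq read counts, and all 9 had a row. The table holds 3 libraries of cells labelled as cancer stem cells (CSC) and 3 of cells labelled as not being cancer stem cells (non-CSC), both from the EO771 line, with no genotype, agent, dose or time given. How the CSC were separated is not stated, nor whether replicates came from separate cultures, and p-values therefore rest on a spread between libraries that may be technical. The series is about a retrotransposon that regulates Sema3c, and its design text names 1 comparison, CSC with non-CSC. The 9 genes were selected on their counts and fold changes in this same comparison, so their differences are given as a description with no p-value.

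Lysophosphatidic acid (LPA) is a small signalling lipid. Autotaxin is a secreted lysophospholipase D that makes LPA outside the cell from lysophosphatidylcholine, and LPA then acts on a family of G protein-coupled receptors. Lipid phosphate phosphatases, whose active site faces outward at the cell surface, remove the phosphate from LPA and end its action. Autotaxin was first isolated as a motility factor of tumour cells, and in the mammary gland and in breast tumours it is known to be made by adipocytes and other stromal cells as well as by some carcinoma cells.

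The CSC libraries held 27099879 to 28205651 counts and the non-CSC libraries 32204112 to 35971131. Levels are in CPM, counts scaled to the size of a library with TMM factors. Of the 9 genes, 7 had enough counts to be tested and 2, Lpar3 and Lpar4, had none. By edgeR's quasi-likelihood test across 17630 genes, with a Benjamini-Hochberg adjusted p under 0.05 as threshold, 66.5% of all genes tested were called, 33.4% as higher and 33.1% as lower in CSC. Of the 7 tested, 6 were called, 3 as higher (Enpp2, Lpar1 and Plpp1) and 3 as lower (Lpar2, Lpar6 and Plpp3), and Plpp2 was not. In all 7 the 3 CSC libraries did not overlap the 3 non-CSC libraries, which was so for 69.3% of all genes tested. Nothing about the 9 genes is read from these counts, since this comparison guided their choice. As RNA of many cells was pooled in each library, more cells that express a gene and more RNA per cell cannot be told apart.

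The epithelial label of the line was checked with its markers. Krt8 averaged 863 ± 30.9 CPM in CSC and 715 ± 35.3 CPM in non-CSC (SD, n = 3 each), while Cdh1, the gene of E-cadherin, was at 0.752 CPM in CSC and 0.952 CPM in non-CSC. All 6 mammary epithelial markers had counts, and their sum was 3815 to 3991 CPM in CSC and 3087 to 3240 CPM in non-CSC. The markers did not move together, as Krt7 had 1057 ± 19.7 CPM in CSC and 501 ± 9.17 CPM in non-CSC, while Epcam had 10.3 ± 0.192 CPM in CSC and 21.3 ± 0.646 CPM in non-CSC (SD, n = 3 each; edgeR adjusted p = 6.15e-18 and 7.38e-13).

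Enpp2 was the gene of the 9 with the largest difference. It lies on the minus strand at chr15:54838901-54952892 (GRCm38). Enpp2 had 116, 119 and 119.6 CPM in the CSC libraries, against 6.57, 6.37 and 6.20 CPM in the non-CSC libraries. The counts behind these were 3192, 3369 and 3470 in CSC and 206, 221 and 219 in non-CSC. Every CSC library stood far above every non-CSC library, and the libraries within a group lay close together. Enpp2 averaged 118 ± 2.03 CPM in CSC and 6.38 ± 0.185 CPM in non-CSC (SD, n = 3 each), a fitted log2 fold change of 4.21 with a standard error of 0.053, or 18.5-fold. Ordered by fold change from the highest, it was number 75 of the 17630 genes tested. By level it was number 1968 in CSC and number 10524 in non-CSC, so that it stood in the upper part of the expressed genes in CSC and in the lower part in non-CSC. The exons of Enpp2 share 5.97% of their bases with an RNA gene on the other strand, Gm26684, and as no source used here states whether the counting used strand, reads from those bases cannot be told apart.

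**Figure D1:**
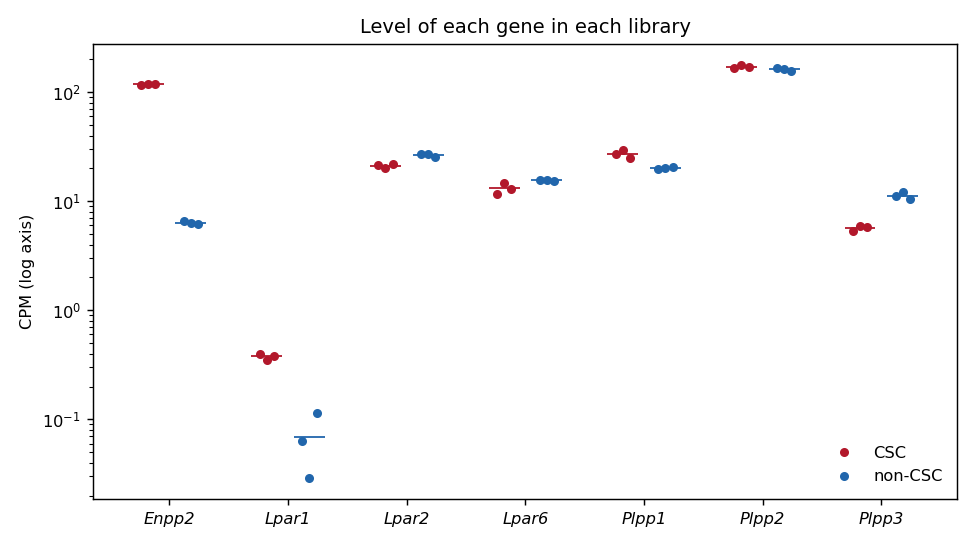
Level of each tested gene in each library, in CPM on a log axis, with a point per library, a line at the group mean, CSC in red to the left and non-CSC in blue to the right of each gene. Enpp2 sits at 116 to 119.6 CPM in CSC and 6.20 to 6.57 CPM in non-CSC, while Plpp2 is almost level between the groups, and Lpar3 and Lpar4, with no counts, are not drawn.

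The receptors fall into 2 families by descent. LPAR1, LPAR2 and LPAR3 belong to the EDG family, together with the receptors of sphingosine 1-phosphate, and LPAR4 and LPAR6 to a family close to the purinergic P2Y receptors. Lpar2, which couples to several kinds of G protein and is known from tumour cells, was the receptor gene with the highest level of the 5. It had 21.3, 20.01 and 21.8 CPM in the CSC libraries, against 27.1, 27.1 and 25.6 CPM in the non-CSC libraries. All 3 CSC libraries were below all 3 non-CSC libraries, by a modest margin. Its fitted log2 fold change of -0.34 had a standard error of 0.056.

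Lpar6, a receptor gene known in humans for its role in hair growth, was likewise a little lower in CSC. It had 11.8, 14.7 and 12.9 CPM in the CSC libraries, against 15.6, 15.6 and 15.4 CPM in the non-CSC libraries. The CSC libraries were more spread than the non-CSC libraries, and the highest of them came close to the lowest non-CSC library. The log2 fold change of Lpar6 was -0.24 with a standard error of 0.072. Lpar6 lies at chr14:73237895-73243294 on the plus strand, inside the retinoblastoma gene Rb1, which runs on the other strand, and 7.56% of its exon bases are also exon bases of Rb1. Rb1, looked up after its overlap was seen, went the other way, at 13.6 ± 0.832 CPM in CSC and 10.8 ± 0.550 CPM in non-CSC (SD, n = 3 each; edgeR adjusted p = 0.000196).

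Lpar1, the most widely expressed LPA receptor gene in mouse tissues, was close to the limit of these libraries. The CSC libraries held 11, 10 and 11 counts of Lpar1, against 2, 1 and 4 counts in the non-CSC libraries. All CSC libraries were above all non-CSC libraries, but with few counts in either. Lpar1 passed the filter for testing through its CSC libraries alone. Its call and its lack of overlap are therefore partly set by that filter. The sums, 32 counts in CSC and 7 in non-CSC, gave a ratio of 5.46 after scaling for depth, with an exact 95% interval of 2.37 to 14.7 that covers counting error only. In CPM these were 0.353 to 0.399 in CSC and 0.0288 to 0.113 in non-CSC, so the level of Lpar1 was far below that of Lpar2 in both groups.

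Lpar3 and Lpar4 had 0 counts in each of the 6 libraries. A count of 0 allows up to 3 counts, which is 0.103 to 0.109 CPM in a CSC library and 0.0849 to 0.0956 CPM in a non-CSC library, so any expression was not detectable at this depth. Lpar5, the receptor gene that is not among the 9, had 3.09, 3.18 and 4.45 CPM in the CSC libraries, against 3.60, 3.26 and 2.69 CPM in the non-CSC libraries. These groups overlapped, and the log2 fold change of 0.18 with a standard error of 0.14 did not pass the test (edgeR adjusted p = 0.294).

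Promoter windows of RefSeq (GRCm38.p6, 250 bases before to 50 after a gene's start) were matched for 7 of the 9 genes, not for Enpp2 and Plpp1. The windows of the highest receptor gene, Lpar2 (chr8:69822315-69822614, plus strand), and of a receptor gene with no counts, Lpar3 (chr3:146220711-146221010, plus strand), are shown as a gene with counts and one without, 5′ to 3′ on the gene's strand, with the GC box GGGCGG on either strand in capitals.
Lpar2: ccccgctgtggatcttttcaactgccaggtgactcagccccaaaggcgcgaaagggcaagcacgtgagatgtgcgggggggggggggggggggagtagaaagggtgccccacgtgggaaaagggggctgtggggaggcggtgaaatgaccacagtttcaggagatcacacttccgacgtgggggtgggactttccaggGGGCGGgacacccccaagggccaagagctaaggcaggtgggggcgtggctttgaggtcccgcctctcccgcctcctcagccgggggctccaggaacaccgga
Lpar3: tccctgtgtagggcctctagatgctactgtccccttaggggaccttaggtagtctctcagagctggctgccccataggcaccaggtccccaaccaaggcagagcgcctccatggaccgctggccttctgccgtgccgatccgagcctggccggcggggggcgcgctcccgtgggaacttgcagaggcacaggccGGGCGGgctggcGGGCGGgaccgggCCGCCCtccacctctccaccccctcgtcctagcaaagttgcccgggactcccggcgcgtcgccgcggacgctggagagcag
Both windows are rich in G and C, 66.0% for Lpar2 and 70.3% for Lpar3, against a median of 52.7% over the 32851 windows of all genes. Lpar3 has 25 CG pairs and 3 GC boxes, and Lpar2 has 15 CG pairs and 1 GC box, where the median window has 7 CG pairs and 35.7% of windows hold a GC box. The Lpar2 window also has 1 match to the AP-1 motif TGANTCA on either strand, which 7.81% of all windows have, and the Lpar3 window has none. Lpar4, the other receptor gene with no counts, has a window unlike that of Lpar3, with 46.7% G and C, 6 CG pairs and 1 GC box. These letter counts describe the windows only.

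The phosphatase genes moved apart from each other. Plpp3 had the largest difference of the 3 and lay on the lower side in CSC. It had 5.37, 5.90 and 5.83 CPM in the CSC libraries, against 11.2, 12.1 and 10.4 CPM in the non-CSC libraries. No CSC library reached the lowest non-CSC library. Plpp3 averaged 5.70 ± 0.287 CPM in CSC and 11.2 ± 0.833 CPM in non-CSC (SD, n = 3 each). Its log2 fold change of -0.98 had a standard error of 0.084, so that non-CSC had 1.97-fold more.

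Plpp1 was on the higher side in CSC. It had 27.0, 29.6 and 24.8 CPM in the CSC libraries, against 19.6, 20.1 and 20.6 CPM in the non-CSC libraries. All CSC libraries were above all non-CSC libraries, with more spread among the CSC. The log2 fold change of Plpp1 was 0.43 with a standard error of 0.062. Its exons share 25.8% of their bases with Mtrex, a helicase gene on the other strand, so part of its counts cannot be assigned without strand. Mtrex itself, looked up after this was seen, had 104 ± 0.360 CPM in CSC and 101 ± 3.18 CPM in non-CSC (SD, n = 3 each) and did not pass the test (edgeR adjusted p = 0.348).

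Plpp2 was by far the most abundant phosphatase gene and hardly differed. It had 168.3, 179 and 169 CPM in the CSC libraries, against 168.2, 165 and 156 CPM in the non-CSC libraries. The lowest CSC library and the highest non-CSC library were almost the same. The log2 fold change of Plpp2 was 0.08 with a standard error of 0.039, which was not called here but was called with upper-quartile and library-size scaling (0.14 and 0.15), with a filter at a mean of 50 counts (0.11) and without non-CSC replicate 1 (0.09).

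The promoter windows of the abundant, nearly level Plpp2 (chr10:79533738-79534037, minus strand) and of Plpp3 (chr4:105157097-105157396, plus strand), the phosphatase gene with the largest difference, are shown as the 2 extremes of this family, with the GC box GGGCGG on either strand in capitals.
Plpp2: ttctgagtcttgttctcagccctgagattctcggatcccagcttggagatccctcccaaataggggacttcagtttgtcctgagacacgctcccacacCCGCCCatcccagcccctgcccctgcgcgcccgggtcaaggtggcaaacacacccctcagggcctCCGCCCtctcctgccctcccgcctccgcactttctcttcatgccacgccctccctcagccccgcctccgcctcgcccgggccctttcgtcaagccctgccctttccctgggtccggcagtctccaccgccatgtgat
Plpp3: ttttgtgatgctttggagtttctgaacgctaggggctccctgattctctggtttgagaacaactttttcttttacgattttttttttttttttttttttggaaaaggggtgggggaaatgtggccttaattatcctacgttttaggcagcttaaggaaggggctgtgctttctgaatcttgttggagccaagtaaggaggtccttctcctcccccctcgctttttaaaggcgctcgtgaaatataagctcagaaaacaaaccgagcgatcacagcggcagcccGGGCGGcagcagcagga
The Plpp2 window has 65.3% G and C and 2 GC boxes. The Plpp3 window has 46.0% G and C, which is below the median of 52.7%, with 1 GC box near the 3′ end of the window and 1 match to the NFAT motif TGGAAA, which 21.4% of all windows hold. Neither window has a match to the TATA box TATAAA, present in 13.6% of windows.

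Levels of different genes were compared per kb of the longest transcript (CPM per kb). In CSC the order from the highest was Plpp2 at 104 ± 3.64, Enpp2 at 38.2 ± 0.656, Plpp1 at 17.0 ± 1.504, Lpar2 at 3.62 ± 0.156, Lpar6 at 2.43 ± 0.278, Plpp3 at 1.80 ± 0.0908 and Lpar1 at 0.106 ± 0.00648 CPM per kb (SD, n = 3). In non-CSC it was Plpp2 at 98.5 ± 3.94, Plpp1 at 12.6 ± 0.293, Lpar2 at 4.59 ± 0.146, Plpp3 at 3.55 ± 0.264, Lpar6 at 2.88 ± 0.0152, Enpp2 at 2.06 ± 0.0597 and Lpar1 at 0.0194 ± 0.0120 CPM per kb (SD, n = 3). Enpp2 thus stood second of 7 in CSC, above both Plpp1 and every receptor gene, and sixth of 7 in non-CSC, below all but Lpar1. In each group no gene's libraries overlapped those of the next gene in the order. The order was the same in both groups when the median transcript length of each gene was used, though no source used here states the annotation that the authors counted on.

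**Figure D2:**
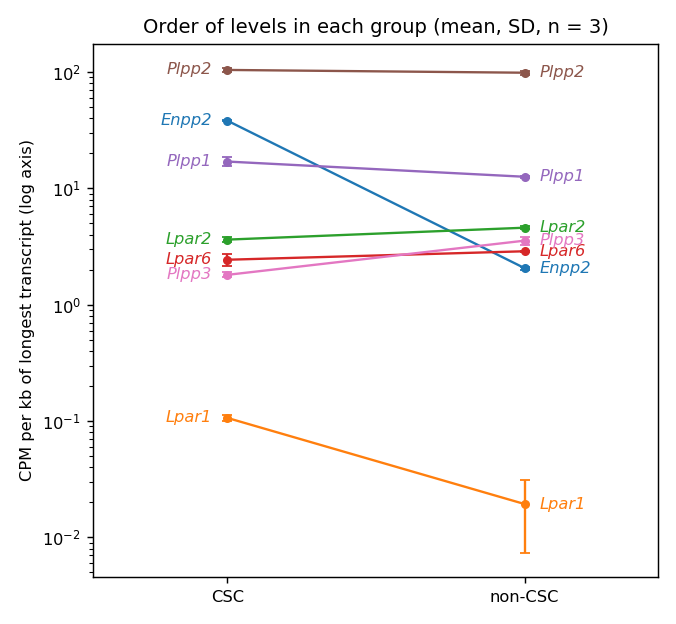
Mean level of each tested gene in CPM per kb of its longest transcript, on a log axis, in CSC (left) and non-CSC (right), with bars for the SD of 3 libraries and a line joining the 2 values of a gene. Enpp2 crosses 4 other genes, at 38.2 CPM per kb in CSC and 2.06 CPM per kb in non-CSC.

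The make-up of the receptors was described by each gene's share of their summed CPM per kb. Among the 5 receptor genes, Lpar2 took 61.6%, 54.9% and 60.0% in the CSC libraries, against 61.7%, 61.7% and 60.4% in the non-CSC libraries, and these groups overlapped. Lpar6 took 39.4% ± 3.61 in CSC and 38.5% ± 0.576 in non-CSC (SD, n = 3 each), and these groups overlapped. Lpar1 took a small share that was larger in every CSC library, 1.73% ± 0.151 in CSC and 0.261% ± 0.166 in non-CSC (SD, n = 3 each). The sum over the receptor genes was 6.16 ± 0.174 CPM per kb in CSC and 7.49 ± 0.150 CPM per kb in non-CSC (SD, n = 3 each).

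With Lpar5 included, the shares of Lpar2 and Lpar5 no longer overlapped between the groups. Lpar2 then took 45.5%, 40.8% and 40.3% in the CSC libraries, against 46.5%, 47.6% and 48.3% in the non-CSC libraries. Lpar5 took 26.2%, 25.8% and 32.8% in the CSC libraries, against 24.6%, 22.8% and 20.1% in the non-CSC libraries. Lpar2 was thus lower and Lpar5 higher as a share in each CSC library. The sums were 8.08 to 9.30 CPM per kb in CSC and 9.16 to 10.1 CPM per kb in non-CSC, which overlapped.

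Plpp2 made up most of the phosphatase transcripts in every library. Its share was 84.7% ± 0.678 in CSC and 85.9% ± 0.591 in non-CSC (SD, n = 3 each). Plpp1 had 13.8% ± 0.734 in CSC and 11.0% ± 0.627 in non-CSC, and Plpp3 had 1.47% ± 0.0666 in CSC and 3.10% ± 0.166 in non-CSC (SD, n = 3 each). The sum of the 3 was 123 ± 5.05 CPM per kb in CSC and 115 ± 3.85 CPM per kb in non-CSC (SD, n = 3 each), so the fall of Plpp3 took place in a small part of the family's transcripts.

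**Figure D3:**
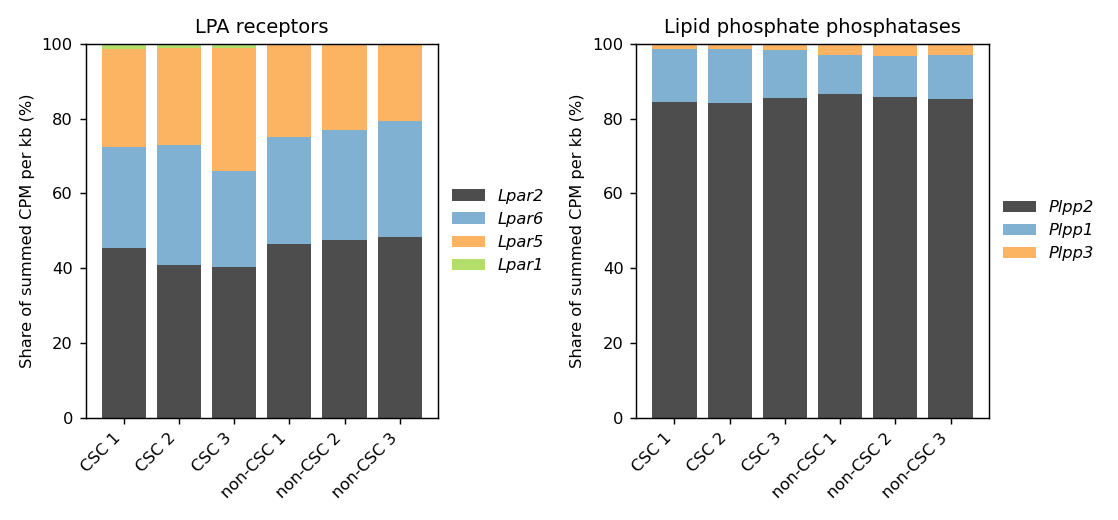
Share of each gene in the summed CPM per kb of the LPA receptor genes (left, with Lpar5) and of Plpp1 to Plpp3 (right), as stacked bars in percent, 1 bar per library, CSC first. Lpar2 is the largest receptor share and Plpp2 the largest phosphatase share in all 6 libraries. The Lpar5 share is 25.8% to 32.8% in CSC and 20.1% to 24.6% in non-CSC.

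Other genes of the pathway were taken from 9 lists by role, chosen with earlier results of these data known. Over all genes tested the median log2 fold change was 0.01, and 66.5% were called, 33.4% as higher and 33.1% as lower in CSC. Of the 6 other members of autotaxin's family of ectonucleotide pyrophosphatases, most of which act on nucleotides, 2 were tested, and they went opposite ways. Enpp4 rose, at 26.3 ± 0.752 CPM in CSC and 14.7 ± 0.649 CPM in non-CSC (SD, n = 3 each; edgeR adjusted p = 1.40e-11). Enpp1, which makes pyrophosphate and degrades the messenger cGAMP, fell by 0.39 on the log2 scale (edgeR adjusted p = 0.000117). The median of these genes was 0.22, and -0.41 with no filter beyond 1 count. Enpp3, Enpp5, Enpp6 and Enpp7 had group means of at most 0.129 CPM.

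Genes listed for the supply of LPA or its precursors moved both ways. Of 17, 14 were tested, 7 rose and 6 fell, where over all genes tested 33.4% were called higher and 33.1% lower. The median log2 fold change of the list was 0.15, which was 0.07 without CSC replicate 1 and 0.06 without non-CSC replicate 3. Pnpla7, a lysophospholipase that breaks down lysophosphatidylcholine, rose with a log2 fold change of 1.63, at 12.2 ± 0.934 CPM in CSC and 3.94 ± 0.168 CPM in non-CSC (SD, n = 3 each; edgeR adjusted p = 1.20e-13). As Pnpla7 removes the lipid that autotaxin acts on, the counts and median of this list do not measure supply. Pla1a, a secreted phospholipase that yields lysophosphatidylserine, rose at 47.4 ± 1.64 CPM in CSC and 28.0 ± 2.38 CPM in non-CSC (SD, n = 3 each; edgeR adjusted p = 3.59e-11). Agk, the mitochondrial kinase that makes LPA from monoacylglycerol, fell by 0.77 on the log2 scale, and Gpat3, which makes LPA inside the cell from glycerol 3-phosphate, fell by 0.71 (edgeR adjusted p = 2.15e-07 and 2.75e-09). Chosen after their values were seen, Gpam, the mitochondrial enzyme of the same step, had 4.59 ± 0.512 CPM in CSC and 0.343 ± 0.0489 CPM in non-CSC, and Gdpd3, an intracellular lysophospholipase D, had 1.26 ± 0.385 CPM in CSC and 4.58 ± 0.378 CPM in non-CSC (SD, n = 3 each; edgeR adjusted p = 1.95e-14 and 5.34e-10). Gpam passed the filter for testing with the help of its CSC libraries, so its call is partly set by that filter. Liph and Lipi, which make LPA from phosphatidic acid at the cell surface, had group means of at most 0.0357 CPM.

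Genes of other enzymes that use or remove LPA went both ways. Of 9 further phosphatases of the family and their inactive relatives, 4 were tested, 3 fell and 1 was not called, and the median log2 fold change was -0.20. Plppr3 belongs to the inactive relatives, and over all genes tested 33.1% were called lower. Plpp6 fell by 0.39, Plppr3 by 0.21 and Plpp5 by 0.20 on the log2 scale (edgeR adjusted p = 0.00121, 0.000453 and 0.0176), and the call of Plpp5 did not hold under upper-quartile or library-size scaling (adjusted p = 0.0842 and 0.104), without CSC replicate 2 (adjusted p = 0.124) and without non-CSC replicate 1 (adjusted p = 0.0725). Of 14 acyltransferases and phosphatases that use LPA or phosphatidate inside the cell, 11 were tested, of which 3 rose and 6 fell. Over all genes tested 33.4% were called higher and 33.1% lower. The median of this list was -0.11. Agpat2, which turns LPA into phosphatidate, rose at 122 ± 2.47 CPM in CSC and 81.0 ± 3.04 CPM in non-CSC (SD, n = 3 each; edgeR adjusted p = 4.85e-12). Agpat1, its close relative, fell by 0.42, the lysocardiolipin acyltransferase gene Lclat1 by 0.58 and the lysophospholipid acyltransferase gene Lpcat4 by 0.35 on the log2 scale (edgeR adjusted p = 4.11e-09, 2.85e-08 and 0.0142).

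The receptors and enzymes of sphingosine 1-phosphate, the lipid closest to LPA in its way of signalling, included 3 genes that rose and 4 that fell of 10 tested, with a median of -0.10. Among all genes tested 33.4% were called higher and 33.1% lower. Of the 3 sphingosine 1-phosphate genes that rose, Sgpp2 and Mfsd2b had low levels, 1.07 and 0.695 CPM in CSC and 0.469 and 0.256 CPM in non-CSC. Mfsd2b passed the filter for testing through its CSC libraries alone, and Sgpp2 with the help of its CSC libraries. Both calls are therefore partly set by that filter. With a mean of at least 50 counts, 1 rose and 4 fell. Sphk1, the kinase that makes this lipid, rose at 7.53 ± 0.0771 CPM in CSC and 3.42 ± 0.232 CPM in non-CSC (SD, n = 3 each; edgeR adjusted p = 2.97e-10). The receptor gene S1pr1 fell at 9.97 ± 0.895 CPM in CSC and 15.2 ± 1.10 CPM in non-CSC (SD, n = 3 each; edgeR adjusted p = 2.70e-07). The phosphatase gene Sgpp1 fell by 0.36 and the exporter gene Spns2 by 0.26 on the log2 scale (edgeR adjusted p = 1.80e-06 and 1.37e-05).

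Below the receptors, 15 of 16 genes of G proteins and of the GTPases and kinases they act on were tested. Of these, 5 rose and 8 fell, where over all genes tested 33.4% were called higher and 33.1% lower. The median of this list was -0.08. Gna11 and Gnaq, the alpha subunits that activate phospholipase C, rose. Gna11 had 97.2 ± 1.21 CPM in CSC and 61.2 ± 1.02 CPM in non-CSC, and Gnaq had 171 ± 4.14 CPM in CSC and 111 ± 0.627 CPM in non-CSC (SD, n = 3 each; edgeR adjusted p = 4.95e-13 and 3.52e-13). The kinase gene Rock1 rose with a log2 fold change of 0.48 and the GTPase gene Rhoc fell by 0.44 (edgeR adjusted p = 1.09e-09 and 7.54e-10). Of 3 other receptors that are known or thought to respond to LPA, Lpar5 among them, 2 were tested and 0 were called, with 0 at an unadjusted edgeR p under 0.05 and 0 under each of the 14 alternatives.

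Genes known to be induced by LPA in fibroblasts or tumour cells were mostly lower in CSC. Of 13, 11 were tested, 1 rose and 9 fell, and the median log2 fold change was -0.76 against 0.01 over all genes tested, of which 33.1% were called lower. The angiogenic factor gene Vegfa fell at 61.2 ± 2.93 CPM in CSC and 195 ± 3.07 CPM in non-CSC, and the transcription factor gene Egr1 at 24.3 ± 2.38 CPM in CSC and 77.1 ± 2.81 CPM in non-CSC (SD, n = 3 each; edgeR adjusted p = 3.55e-20 and 1.31e-16). The urokinase receptor gene Plaur fell by 1.30 on the log2 scale (edgeR adjusted p = 1.46e-18). The gene that rose was the chemokine gene Cxcl1, at 10.6 ± 0.348 CPM in CSC and 4.49 ± 0.641 CPM in non-CSC (SD, n = 3 each; edgeR adjusted p = 5.38e-11), and the cytokine gene Il6 did not pass the test (edgeR adjusted p = 0.998). As background, none of these genes answers to LPA alone: Vegfa is also induced by low oxygen and Egr1 by growth factors. Neither LPA nor autotaxin protein was measured.

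Of 6 genes reported to act on the autotaxin gene in other cells, 2 rose and 3 fell, with a median of -0.27. Among all genes tested 33.4% were called higher and 33.1% lower. The integrin genes Itgb4 and Itga6, which encode the subunits of 1 laminin receptor, went opposite ways. Itgb4 had 616 ± 15.5 CPM in CSC and 411 ± 19.97 CPM in non-CSC, and Itga6 had 847 ± 7.31 CPM in CSC and 1449 ± 25.1 CPM in non-CSC (SD, n = 3 each; edgeR adjusted p = 4.63e-12 and 1.32e-15). Jun fell by 0.73 and the NF-kB subunit gene Rela by 0.55 on the log2 scale (edgeR adjusted p = 1.67e-11 and 4.10e-11). Nfatc2 rose at a very low level, 0.494 ± 0.101 CPM in CSC and 0.116 ± 0.0530 CPM in non-CSC (SD, n = 3 each; edgeR adjusted p = 0.000127), and Stat3 did not pass the test (edgeR adjusted p = 0.646). The filter for testing was passed by Nfatc2 through its CSC libraries alone, so its call is partly set by that filter.

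**Figure D4:**
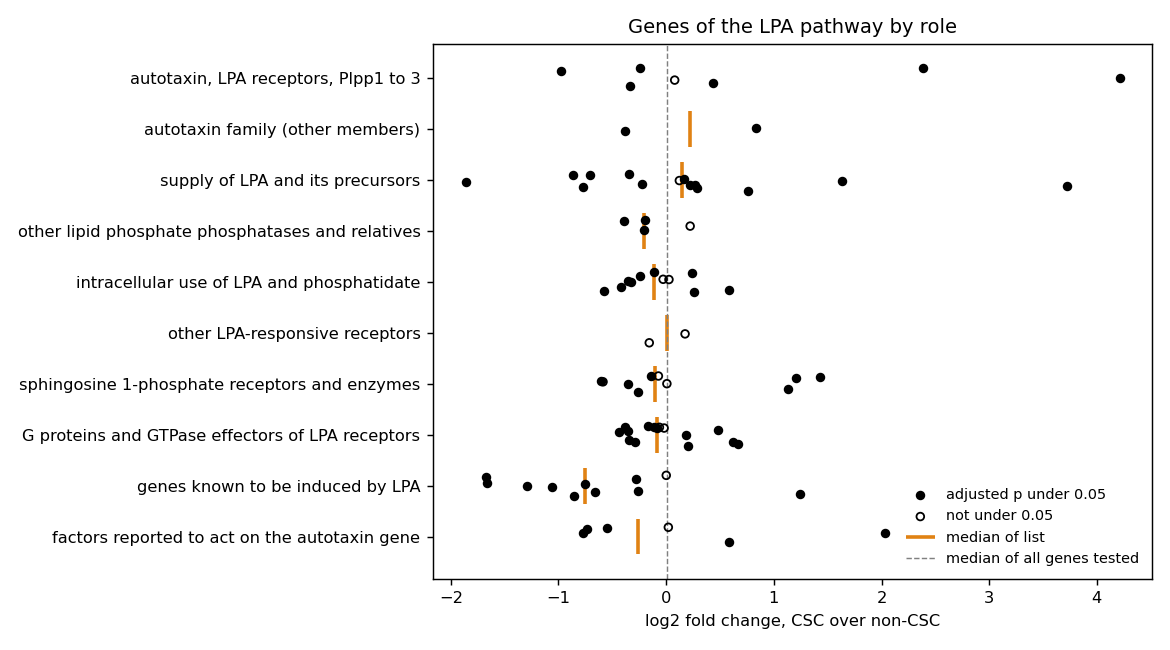
Fold changes of the 7 tested genes (top row) and of the genes of 9 pathway lists, as log2 of CSC over non-CSC on the x axis, with a point per gene, filled where the edgeR adjusted p was under 0.05. Orange bars mark each list's median and the dashed line the median of all genes tested, 0.01. The genes induced by LPA lie mostly to the left, with a median of -0.76, while Enpp2 lies at 4.21.

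Markers of other cell types that make autotaxin were looked at beside Enpp2. Of 7 adipocyte markers, Plin1 and Lep had no counts, Adipoq averaged 0.0115 CPM in CSC and 0.00961 CPM in non-CSC, and only Pparg exceeded 1 CPM, so that the summed level was 1.52 to 1.92 CPM in CSC and 6.15 to 7.21 CPM in non-CSC. Of 8 fibroblast markers, Lum had no counts, Col1a2, Fap and Postn had group means of at most 0.0121 CPM, and the sum of 1196 to 1243 CPM in CSC and 555 to 589 CPM in non-CSC was almost all Dcn, the gene of decorin. All 3 that were tested, Dcn, Pdgfra and Col1a1, were called higher in CSC, as were 33.4% of all genes tested. Pdgfra had 8.37 CPM in CSC and 6.57 CPM in non-CSC, and its groups overlapped (edgeR adjusted p = 0.012). Col1a1 had 1.06 CPM in CSC and 0.514 CPM in non-CSC (edgeR adjusted p = 0.000422). Col3a1, not tested, averaged 0.119 CPM in CSC and 0.0201 CPM in non-CSC. Of 5 endothelial markers, Tek had no counts and Cdh5 averaged 0.0348 CPM in CSC and 0.0212 CPM in non-CSC, and the sum of 5.83 to 6.03 CPM in CSC and 1.38 to 1.75 CPM in non-CSC was mainly Vwf. The 2 endothelial markers tested went opposite ways. Vwf was called higher in CSC, at 5.46 CPM in CSC and 0.899 CPM in non-CSC (edgeR adjusted p = 4.96e-14). Pecam1 was called lower at a low level, 0.331 CPM in CSC and 0.586 CPM in non-CSC (edgeR adjusted p = 0.0216). Of 7 leukocyte markers, Adgre1 and Cd3e had no counts and Ptprc averaged 0.152 CPM in CSC and 0.0864 CPM in non-CSC, while Itgam had 10.2 CPM in CSC and 0.741 CPM in non-CSC and Csf1r had 8.06 CPM in CSC and 1.85 CPM in non-CSC. Cd68, the most abundant of them, was lower in CSC, at 17.8 ± 0.780 CPM in CSC and 25.4 ± 1.11 CPM in non-CSC (SD, n = 3 each; edgeR adjusted p = 6.04e-08), and the leukocyte sum was 35.6 to 36.7 CPM in CSC and 27.1 to 29.2 CPM in non-CSC. The part of Dcn, Pdgfra, Col1a1, Vwf, Itgam, Csf1r and Cd68 expression in the level of Enpp2 was not tested.

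The neighbours of each gene on its chromosome were described with the 15 tested genes on each side, by RefSeq position. Around Enpp2 the 30 neighbours, spread over chr15:45962525-58034294, had a median log2 fold change of 0.22, and none of them changed as much as Enpp2. Chosen after their values were seen, Tnfrsf11b, the gene of osteoprotegerin, had 3.44, Col14a1, a collagen gene, 3.11, Sntb1 1.46 and Dscc1 1.09 (edgeR adjusted p = 6.54e-15, 3.26e-24, 1.20e-10 and 1.83e-10), all within 1 Mb, while Mal2, the nearest tested gene on the lower side, had 0.05 and did not pass (edgeR adjusted p = 0.365). The other tested genes within 1 Mb were Gm52209 at 3.11, Gm41325 at 1.03, Deptor at 0.44, Taf2 at 0.44, Mrpl13 at 0.11 and Mtbp at -0.14. Most tested genes within 1 Mb thus lay above the median of the whole window. Around Lpar6 the median was -0.28, close to its own -0.24, and 23 of 30 neighbours changed more. Around Plpp1 the median was 0.34, which was 0.10 with 30 genes on each side. Around Plpp3 the median was 0.06 and 3 of 30 neighbours changed more, and around Lpar2 and Plpp2 the medians were -0.01 and -0.12.

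**Figure D5:**
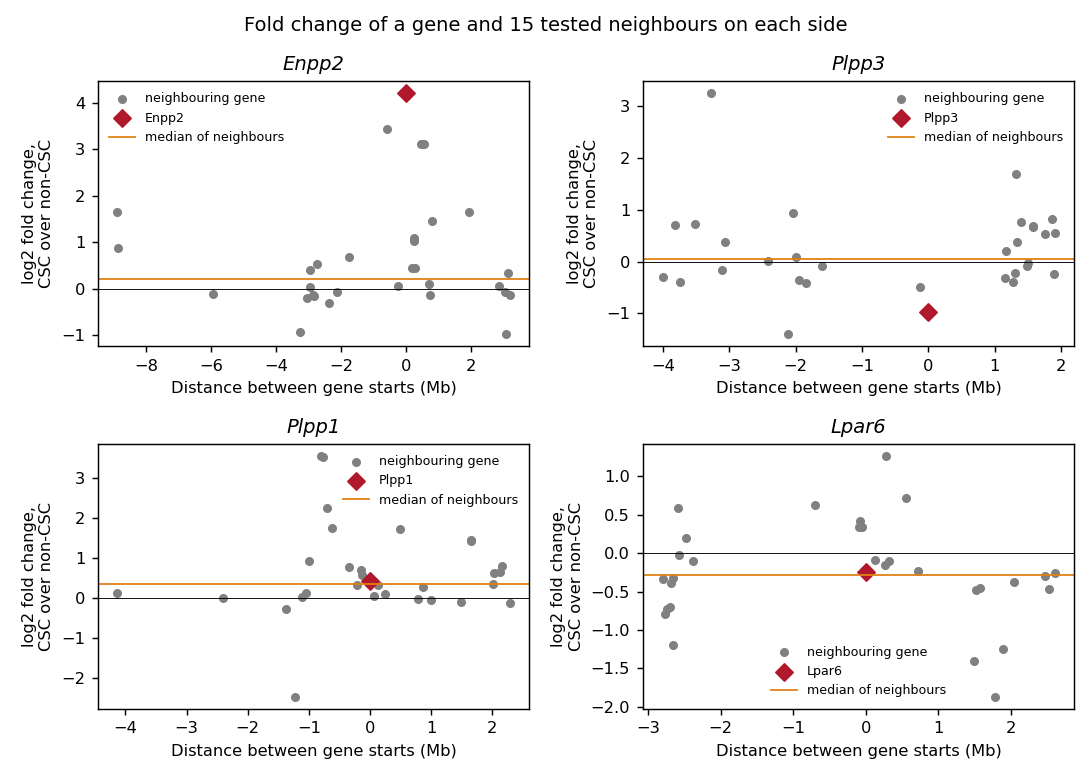
Fold change (log2 of CSC over non-CSC) of Enpp2, Plpp3, Plpp1 and Lpar6 (red diamonds) and of the 15 tested genes on each side (grey), by distance between gene starts in Mb, with the median of the neighbours as an orange line. Enpp2 stands above all 30 neighbours, whose median is 0.22, whereas Lpar6 lies at the level of its surroundings, -0.28.

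The 5 genes whose profile was most like that of Enpp2 were taken by the distance between log2 CPM profiles over the 6 libraries, each centred on its own mean. The search covered 10155 genes with a mean of at least 5 CPM over the 6 libraries, without predicted and clone names. The 5 were Serpinb11, Gng4, Pik3ap1, Fhl1 and Il5ra, at distances of 0.101 to 0.246. All but Serpinb11 were below 5 CPM in non-CSC and passed this limit through their CSC libraries. Serpinb11, a member of the serpin family, had nearly the same levels as Enpp2, at 124 ± 3.89 CPM in CSC and 6.79 ± 0.355 CPM in non-CSC (SD, n = 3 each). Gng4, which encodes a G protein gamma subunit, had 15.7 ± 0.670 CPM in CSC and 0.763 ± 0.0915 CPM in non-CSC (SD, n = 3 each). Pik3ap1, an adaptor of phosphoinositide 3-kinase, had 58.1 CPM in CSC and 3.28 CPM in non-CSC, the LIM protein gene Fhl1 had 38.1 CPM in CSC and 2.07 CPM in non-CSC, and the interleukin 5 receptor gene Il5ra had 41.7 CPM in CSC and 2.49 CPM in non-CSC. With 2 groups of libraries such likeness is mainly a like difference between the groups.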

How the data were processed

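RNA sequencing of EO771 cells gave 6 libraries, 3 CSC and 3 non-CSC, grouped by their titles. The authors deposited a table of unnormalized whole-number counts by gene symbol, and the submitters' processing notes name the build GRCm38. The aligner, counter, annotation and strand setting remain not given in the sources used here. Per the labels, libraries were made from 1.3 ug of Trizol-extracted RNA.

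From the deposited counts, filterByExpr of edgeR 4.0.16 left 17630 genes, scaled with TMM and fitted with the robust quasi-likelihood test with no covariate, Benjamini-Hochberg adjusted over all of them. Standard errors are the log2 fold change divided by the square root of F. On simulated counts for 17294 genes of this comparison, 94% of 2-fold changes and 70.2% of log2 changes of 0.5 were recovered, and 0.117% of unchanged genes were called. Only 47 to 50 tested genes were changed there for each size of change, whereas 66.5% of genes were called in the data. These rates therefore need not hold for the data. Replicates differed by more than sampling noise (chi-square per degree of freedom 3.21 to 7.30). Lengths, positions and overlaps came from GENCODE M21, promoters and neighbours from RefSeq (GRCm38.p6).

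The members and lists were chosen with earlier results of these data known. Named genes are all members, up to 4 called genes of each list with the largest changes, and the 5 genes most like Enpp2. The list genes named by this rule and those 5 genes had a mean of at least 5 CPM over the 6 libraries. Predicted and clone names were left out of the search for genes like Enpp2. Other list genes, markers, overlapping genes and neighbours that appear by name were picked after their values were seen. A few genes were taken off the lists and are not reported here, so counts and medians run over the genes left on each list. Profiles for the likeness to Enpp2 are log2 of CPM plus 0.1. Alternatives were RLE, upper-quartile and library-size scaling, 2 filters, DESeq2 1.42.0, limma-voom 3.58.1, leaving out each library and a replicate block. Precision of genes with few counts, such as Lpar1, is limited by counts. Standard errors include the spread between libraries, while the interval of the Lpar1 ratio covers counting error only.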

Additional observations from a re-analysis of the deposited data

How the results depend on the processing

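The log2 fold changes of Enpp2 (4.18 to 4.28), Lpar1 (2.01 to 2.94), Lpar2 (-0.37 to -0.27), Lpar6 (-0.34 to -0.18), Plpp1 (0.36 to 0.50) and Plpp3 (-1.04 to -0.91) kept their direction and call under all 14 alternatives, except that Lpar1 was not tested with a mean of at least 50 counts. Plpp2 was called with upper-quartile scaling (0.14), library-size scaling (0.15) and a mean of at least 50 counts (0.11). With a library left out its value was 0.0395 to 0.0910, called without non-CSC replicate 1 alone, and the cause was not tested. The number of genes called was 9859 to 12763. Counts of called genes in the 9 lists, both directions together, stayed within 1.5 times. With a mean of at least 50 counts, genes called higher went from 3 to 1 for sphingosine 1-phosphate. They went from 2 to 1 for factors acting on the autotaxin gene. List medians moved more: over the 14 alternatives they were -0.41 to 0.29 for the autotaxin family, 0.06 to 0.23 for the supply of LPA, -0.16 to -0.05 for its use inside the cell, -0.10 to 0.21 for other receptors, -0.12 to -0.04 for sphingosine 1-phosphate genes, -0.11 to -0.02 for G proteins and -0.52 to -0.20 for factors acting on the autotaxin gene. They stayed within 1.5 times for genes induced by LPA (-0.82 to -0.69) and further phosphatases (-0.24 to -0.14). A replicate block gave 11680 calls in place of 11732 and changed no call among the 9 genes. Same-numbered libraries did not deviate together (r = -0.0257 to -0.0112), so the numbers were not taken as pairs. Upper-quartile and library-size scaling moved the median of all genes by 0.06 and 0.07. Depth limits Lpar1, Lpar3 and Lpar4.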
